A study of Mus musculus with 6 samples.

Results

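The kinesins described here are the 37 genes of the deposited count table whose symbol is Kif followed by a number and optional letters, out of 23366 gene symbols in all. They were chosen by symbol alone, so no member was taken or dropped for its value, but the family was taken up with its liver and spleen values already known. The liver against spleen values below are therefore a description, and the calls of the fit across all genes are given as counts without p-values. The libraries came from CD4+GFP+ regulatory T (Treg) cells that were sorted by flow cytometry from the liver (3 libraries) and the spleen (3 libraries) of 12-day-old Foxp3GFP knock-in mice. All 6 libraries carry the same knock-in, in which green fluorescent protein reports Foxp3, the lineage factor of Treg cells. Neither group was treated, no conventional T cells are among the samples, and the labels do not say whether a library is 1 animal or a pool. The spread between libraries may therefore be technical in part. The title of the study concerns Treg cells that build up in the neonatal liver, and the comparison asks how these differ from spleen Treg cells of the same age.

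Kinesins are motor proteins that use ATP to walk along microtubules or to take them apart at their ends. One branch of the family builds the mitotic spindle, moves chromosomes and completes cytokinesis, and its genes are mostly transcribed shortly before and during mitosis. The other branches carry organelles, vesicles and ciliary cargo, and many of these are best known from neurons and ciliated cells. In T cells, microtubules and their motors also serve the repositioning of the centrosome towards the cell that is being recognised.

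The libraries held 8437055, 10887092 and 10951720 counts in genes for liver 1 to liver 3, and 1199410, 11408960 and 11358446 for spleen 1 to spleen 3, numbered in accession order. Spleen 1 was thus the shallowest library, with between 4 and 54 counts for each mitotic kinesin. Levels are given in CPM, counts scaled to a common library size with TMM factors. Foxp3 was at 1293, 1303 and 1197 CPM in liver and at 1217, 1157 and 1101 CPM in spleen. Cd4 lay between 636 and 692 CPM in liver and between 590 and 717 CPM in spleen. Il2ra, the interleukin-2 receptor gene of Treg cells, was at 386 to 422 CPM in liver and 589 to 653 CPM in spleen and was called lower in liver. Xist and the Y-linked Ddx3y separated the libraries in the same way in each tissue. Replicate 1 held only Xist above 10 CPM, replicate 2 only Ddx3y and replicate 3 both. Xist and Ddx3y were at 461 and 53.2 CPM in liver 3 and at 327 and 76.8 CPM in spleen 3. Replicate 3 thus held material of both sexes and did not come from 1 animal alone.

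The 11 kinesins grouped here as mitotic were higher in liver Treg cells, and most kinesins of intracellular transport were not called. Of the 37 members, 27 passed the filter on low counts and were tested, and edgeR's quasi-likelihood test across all 11716 genes called 13 of them higher in liver at an adjusted p under 0.05. Across all genes tested, 9.28% were called higher in liver and 6.90% lower. The 13 comprised 11 of the 11 mitotic kinesins and 2 of the 16 tested members outside the mitotic groups, Kif13a and Kif19a. These groups were set by hand. Kif2a, a depolymerase related to Kif2c that also acts in the spindle, was placed outside them and was not called (log2 fold change 0.10 ± 0.13). With Kif2a among them, not every mitotic kinesin would have been called. The counts, medians and shares by group rest on that placement. No member was called lower in liver by edgeR or by DESeq2. At an unadjusted p under 0.05, 17 members were higher in liver and 1, Kif7, was lower. The share of all genes at that unadjusted threshold was not counted. The median log2 fold change, liver minus spleen, was 1.46 for the mitotic kinesins and 0.08 for the tested members outside the mitotic groups, beside -0.01 over all genes tested. For 17 tested members every liver library lay above every spleen library, and for 1 member every liver library lay below, while such a separation was found for 17.7% of all tested genes in the first direction and for 15.2% in the second. Since the family was taken up with this contrast known, nothing is read from these counts beyond the values themselves.

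**Figure D1:**
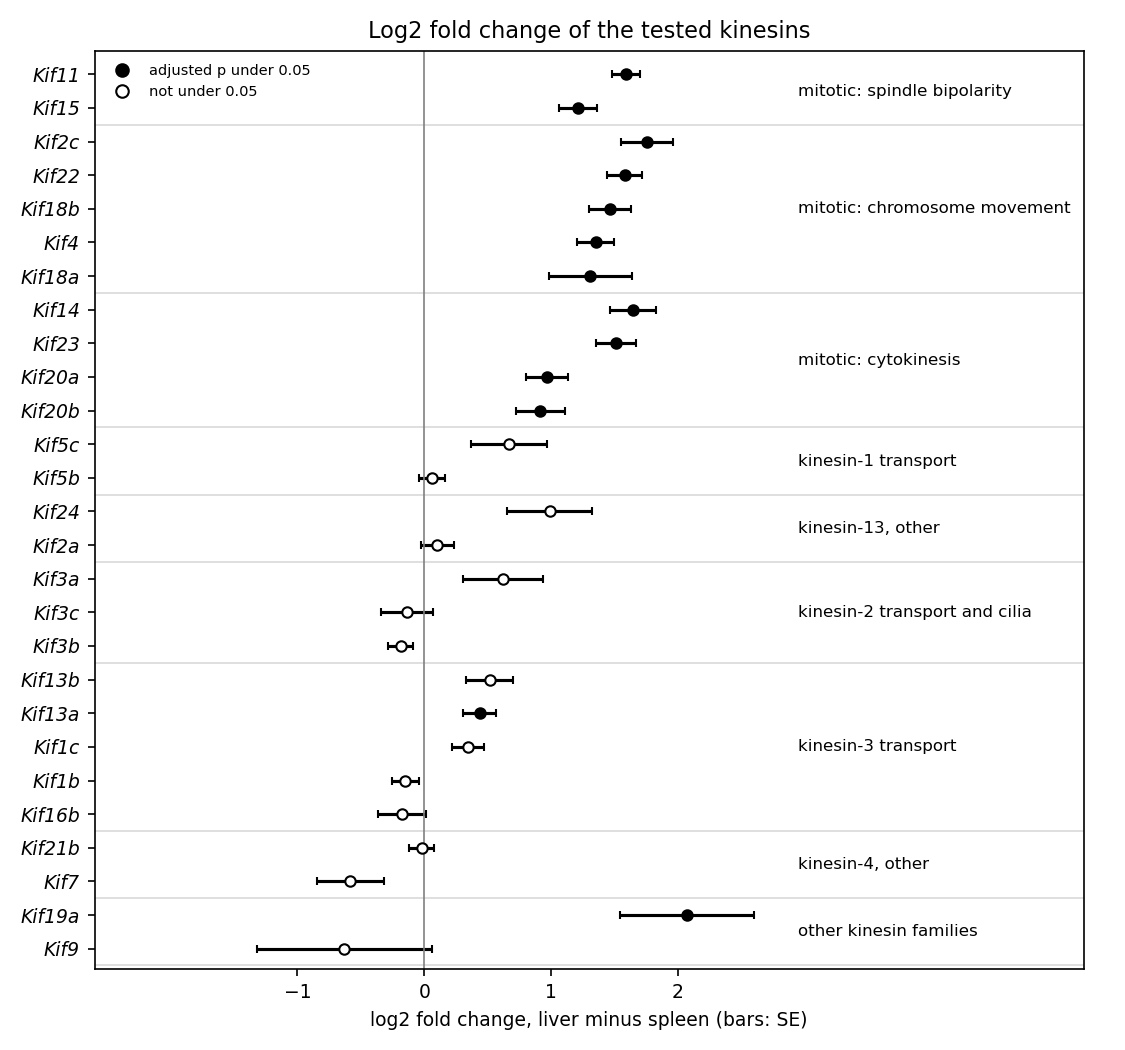
Log2 fold change of the 27 tested kinesins, liver minus spleen, with the standard error as bars, grouped by family or role. Filled points had an adjusted p under 0.05 in edgeR's fit across all genes; the 11 mitotic kinesins run from 0.91 to 1.76, and the other members from -0.63 to 2.07.

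Kif11 and Kif15 keep the spindle bipolar: Kif11 cross-links antiparallel microtubules and slides them apart, and Kif15 holds the poles apart beside it. Kif11 was at 147, 144 and 159 CPM in liver and at 46.4, 48.3 and 52.7 CPM in spleen. All liver libraries lay above all spleen libraries, with a log2 fold change of 1.59 ± 0.11 (SE, n = 3 each). Kif15 was at 64.1, 52.2 and 65.5 CPM in liver and at 31.8, 24.4 and 25.8 CPM in spleen, again without overlap, and its log2 fold change was 1.21 ± 0.15.

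The motors that move chromosomes or trim spindle microtubules showed the same direction. Kif22, a chromokinesin that pushes chromosome arms towards the spindle equator, was at 94.6, 87.0 and 110 CPM in liver and at 25.8, 33.8 and 33.6 CPM in spleen (log2 fold change 1.58 ± 0.14). Kif4, a chromokinesin that also works at the central spindle, was at 61.5, 56.2 and 53.6 CPM in liver and at 22.4, 23.5 and 21.2 CPM in spleen (1.35 ± 0.15 on the log2 scale). The tissues did not overlap for either gene, and within each tissue the Kif4 libraries differed from each other by little. The table also lists a pseudogene, Kif4-ps, at 0 counts in every library. How reads shared by such copies were counted is not known, which leaves the level of Kif4 uncertain. Kif2c, a depolymerase that corrects faulty attachments of chromosomes, was at 30.03, 34.6 and 35.8 CPM in liver and at 14.6, 9.93 and 8.62 CPM in spleen. Its log2 fold change of 1.76 ± 0.20 was the largest among the mitotic kinesins.

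Kif18a and Kif18b are plus-end motors that limit the length of spindle microtubules. Kif18b was at 52.6, 48.6 and 49.3 CPM in liver and at 14.6, 16.2 and 21.3 CPM in spleen (log2 fold change 1.46 ± 0.17). Kif18a, the mitotic kinesin with the fewest counts, was at 10.9, 13.01 and 15.2 CPM in liver and at 3.44, 3.17 and 7.85 CPM in spleen. Its liver libraries still lay above those of spleen, where spleen 3 stood apart from the other spleen libraries and spleen 1 rested on 4 counts. The log2 fold change of Kif18a was 1.31 ± 0.33, and it moved to 2.02 without spleen 3. Without spleen 2 it was 0.94 and no longer called, and with all libraries thinned to the depth of spleen 1 it was 0.61 and not called.

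Among the motors of cytokinesis, Kif23 and Kif14 differed more than Kif20a and Kif20b. Kif23, the motor of the centralspindlin complex, was at 73.5, 70.0 and 73.4 CPM in liver and at 14.6, 26.9 and 27.6 CPM in spleen (log2 fold change 1.51 ± 0.16). Kif14, which acts at the midbody with citron kinase, was at 34.0, 37.5 and 36.4 CPM in liver and at 8.60, 12.7 and 11.1 CPM in spleen (1.65 ± 0.18 on the log2 scale). The liver libraries agreed closely for both genes, and spleen 1 was the lowest library. Kif20a, which carries the chromosomal passenger complex to the central spindle, was at 49.97, 57.0 and 61.5 CPM in liver and at 18.9, 33.6 and 27.7 CPM in spleen (0.97 ± 0.16). Kif20b, which acts late in cytokinesis, was at 34.6, 45.1 and 46.3 CPM in liver and at 31.8, 17.8 and 23.3 CPM in spleen. The gap between the lowest liver and the highest spleen library was narrow for Kif20b, whose log2 fold change of 0.91 ± 0.19 was the smallest of the 11. With all libraries thinned to the depth of spleen 1 it was 0.52 and not called. The difference between these pairs of genes was not tested.

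**Figure D2:**
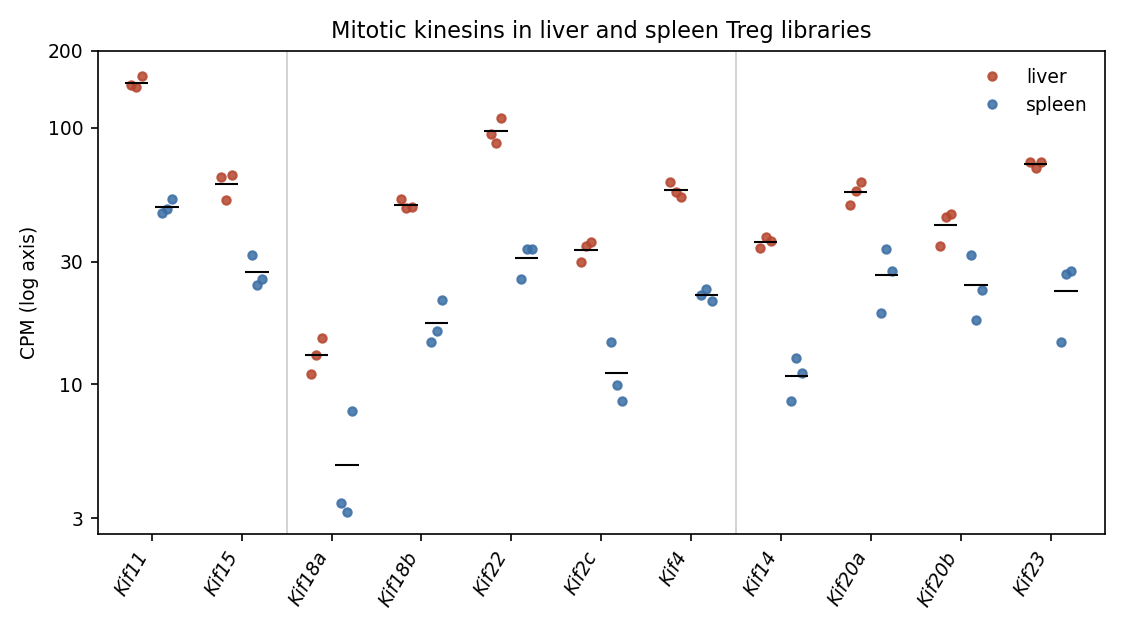
CPM of the 11 mitotic kinesins on a log axis, with 1 point per library, a line at the mean of 3 libraries, and vertical lines between the groups for spindle bipolarity, chromosome movement and cytokinesis. The liver libraries lie above the spleen libraries for each of the 11 genes, with Kif11 the highest at 144 to 159 CPM in liver and Kif18a the lowest at 10.9 to 15.2 CPM.

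The promoters of the mitotic kinesins are shown because these genes moved together. A RefSeq table of build GRCm38.p6, a later build than the mm9 of the count table, held 35 promoters of 31 members, each from 250 bases before to 50 after the start site, and 10 of the 11 mitotic genes were among them. The letters CCAAT (the box bound by NF-Y), TTTGAA (the element known as CHR, found in many genes of late cell cycle) and TTTCCCGC or TTTGGCGC (forms of the E2F site) were searched on both strands. TTTGAA stood in 9 of the 10 mitotic promoters and in 0 of 15 promoters of the 12 matched genes that were tested outside the mitotic groups. Kif2a was among these 12, so these counts too rest on its placement outside the mitotic groups. TTTGAA also stood in the promoters of Kif1a, Kif26b and Kif27, which did not pass the filter, and so in 12 of the 35, beside 17.9% of all 32851 promoters of the table. In 7 of the mitotic genes a TTTGAA match began within 20 bases of the start site, and in Kif26b it began 9 bases before it. In Kif14 and Kif2c the match began 228 and 103 bases before the start. The share of all promoters with a match so near the start was not counted. CCAAT was found in 6 of the 10 mitotic promoters, in 5 of the 15 others and in 37.4% of all promoters. Both were found in 6 of the 10 and in 6.95% of all promoters. The E2F forms were found in 2 of the 10, Kif15 and Kif18a, in 0 of the 15 and in 1.56% of all promoters. The start site is the one annotated in RefSeq, and whether transcription starts there in these cells was not tested. A match is a description of these letters and not evidence of binding, and motif and fold change were not tested against each other.

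Shown are the 150 bases before the start site of both bipolarity motors, of Kif22, which resembles Kif11 in the order of its matches, and of Kif18a, the only matched mitotic gene without TTTGAA. They are read 5′ to 3′ on the gene's strand with every match of the motifs in capitals, a match on the opposite strand appearing as its reverse complement.
Kif11, chr19:37376232-37376381, plus strand: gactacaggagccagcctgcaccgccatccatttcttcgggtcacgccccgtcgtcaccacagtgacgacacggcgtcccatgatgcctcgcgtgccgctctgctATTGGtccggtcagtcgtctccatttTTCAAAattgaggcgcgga
Kif15, chr9:122950931-122951080, plus strand: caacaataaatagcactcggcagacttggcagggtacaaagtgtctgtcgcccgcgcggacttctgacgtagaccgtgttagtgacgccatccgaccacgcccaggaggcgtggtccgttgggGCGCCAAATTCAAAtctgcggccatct
Kif22, chr7:127042421-127042570, minus strand: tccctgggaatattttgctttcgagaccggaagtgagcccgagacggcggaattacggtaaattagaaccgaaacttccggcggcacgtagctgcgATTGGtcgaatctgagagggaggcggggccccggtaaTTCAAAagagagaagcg
Kif18a, chr2:109280588-109280737, plus strand: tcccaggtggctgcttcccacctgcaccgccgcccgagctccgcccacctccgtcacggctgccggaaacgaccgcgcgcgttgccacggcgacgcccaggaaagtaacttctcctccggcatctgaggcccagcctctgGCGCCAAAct
Kif11 and Kif22 each hold a CCAAT match before a TTTGAA match, at 45 and 19 bases before the start in Kif11 and at 54 and 17 bases in Kif22. In Kif15 the E2F form begins 27 bases before the start and a TTTGAA match follows it directly, sharing no base with it.

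The mitotic kinesins were also set against Mki67, the gene of a standard proliferation marker, and their summed ratio overlapped between the tissues. Mki67 is 1 of 4 references of proliferation listed here. Of the others, Top2a was called higher in liver (log2 fold change 1.37), while Pcna (0.28) and Mcm2 (-0.05) were not called. Ratios to these other genes were not computed. Mki67 was at 870, 919 and 871 CPM in liver and at 375, 319 and 341 CPM in spleen, a log2 fold change of 1.37 ± 0.10. The ratio to Mki67 is taken within a library, so that no scaling enters it. The 11 mitotic kinesins together amounted to 75.0%, 70.2% and 81.0% of the Mki67 count in liver and to 62.2%, 78.4% and 76.5% in spleen, and these ranges overlapped. Single genes overlapped between the tissues in 8 of 11 cases. The share of all genes that overlap in this ratio was not computed, so nothing is read from this count. Kif11 was higher relative to Mki67 in liver, at 15.7% to 18.2%, than in spleen, at 12.4% to 15.5%. Kif15 was lower in liver, at 5.68% to 7.52%, than in spleen, at 7.57% to 8.49%, and so was Kif20b, at 3.97% to 5.31% in liver and 5.58% to 8.49% in spleen. All of these gaps were narrow, most of all that of Kif15, at 7.52% against 7.57%. The spleen 1 values rested on 54 counts for Kif11 and on 37 each for Kif15 and Kif20b. With 3 libraries against 3, a single such ratio cannot reach an exact permutation p under 0.10, and none was tested.

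**Figure D3:**
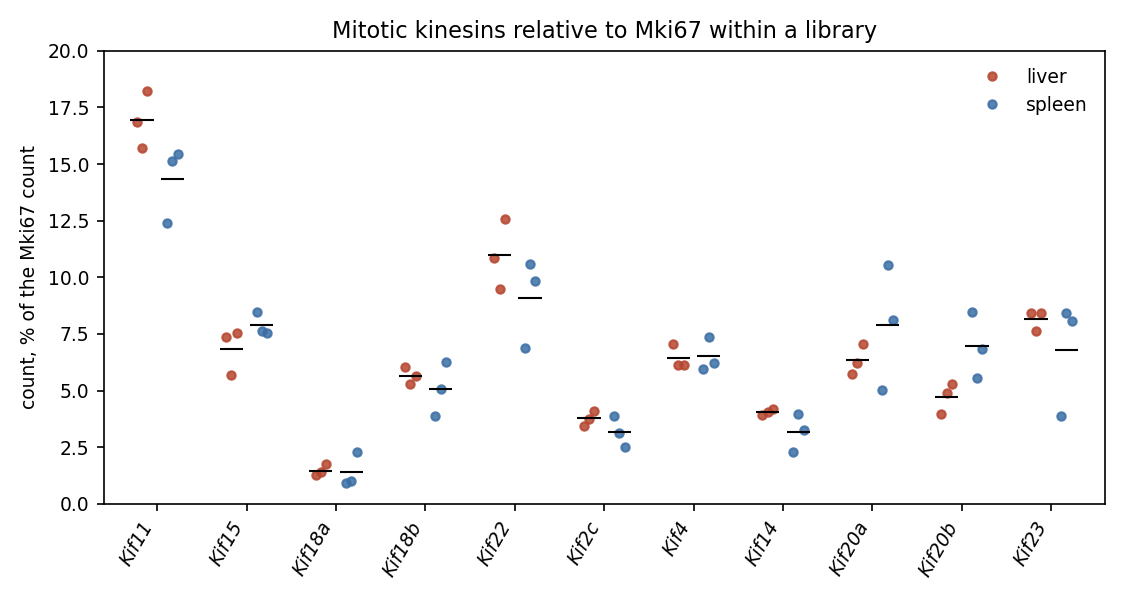
Count of each mitotic kinesin as a percentage of the Mki67 count of the same library, with 1 point per library and a line at the mean of 3. The tissues overlap for 8 of the 11 genes. Kif11 is higher in liver, and Kif15 and Kif20b are lower in liver, each by a narrow gap.

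Among all kinesin counts, the share of the mitotic members was 20.4%, 20.9% and 24.3% in liver against 8.65%, 9.48% and 10.3% in spleen. The shallow spleen 1 had a 95% Wilson interval of 7.72% to 9.69%, which covers counting error only. The mitotic members summed to 653, 646 and 705 CPM in liver and to 233, 250.3 and 261 CPM in spleen. The members outside the mitotic groups summed to 2552, 2447 and 2198 CPM in liver and to 2461, 2389.9 and 2268 CPM in spleen, where the tissues overlapped. In bulk libraries a larger share of dividing cells and more transcript in each dividing cell cannot be told apart.

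**Figure D4:**
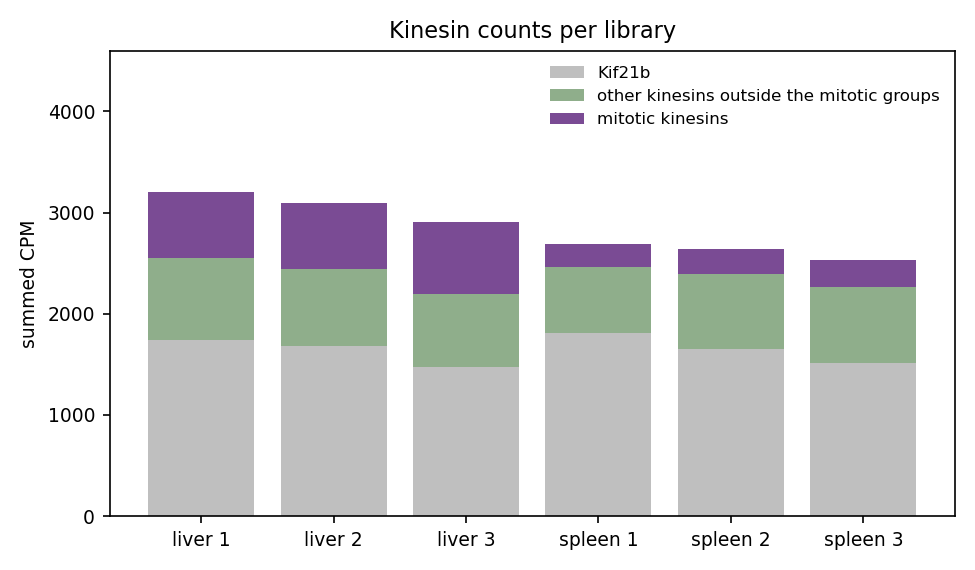
Summed CPM of the 37 kinesins in each library as stacked bars, split into Kif21b, the other members outside the mitotic groups and the 11 mitotic members. The mitotic part is 646 to 705 CPM in liver and 233 to 261 CPM in spleen, while Kif21b takes the largest part of every bar.

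Kif21b, a kinesin-4 that limits microtubule growth, was by far the most abundant member. It was at 1740, 1684 and 1476 CPM in liver and at 1806, 1648 and 1518 CPM in spleen, with a log2 fold change of -0.02 ± 0.10. The tissues overlapped, and the gene supplied 50.8% to 54.4% of all kinesin counts in liver and 60.04% to 67.0% in spleen. Divided by the length of the longest coding transcript in GENCODE M21, Kif21b stood at 179 ± 15.3 CPM per kb in liver and 182 ± 15.8 CPM per kb in spleen (SD, n = 3 each). On this per-length scale the next members in liver were Kif22 (45.9 ± 5.44), Kif5b (31.8 ± 3.83), Kif11 (31.1 ± 1.61), Kif23 (21.3 ± 0.587) and Kif3b (20.1 ± 1.02). Kif5b and Kif11 did not differ beyond their spread, and the libraries of Kif23 and Kif3b overlapped. In spleen the next members were Kif5b (30.2 ± 2.06), Kif3b (22.4 ± 2.29), Kif22 (14.7 ± 2.15), Kif1b (12.7 ± 1.001) and Kif1c (12.0 ± 2.15), and the last 3 of these did not differ beyond their spread.

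The kinesin-1 heavy chains pull vesicles and organelles towards the cell edge. Kif5b, the form made in most cells, was at 210, 199 and 166 CPM in liver and at 169, 184 and 194 CPM in spleen, where the tissues overlapped and the log2 fold change was 0.06 ± 0.10. Kif5c was at 10.8, 10.2 and 7.12 CPM in liver and at 3.44, 5.82 and 6.66 CPM in spleen (0.67 ± 0.30, not called), where spleen 1 rested on 4 counts. Kif5a, the chiefly neuronal form, did not pass the filter and reached at most 24 counts in a library.

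Kinesin-2 motors work in cilia and in membrane traffic. Kif3b was at 113, 107 and 119 CPM in liver and at 112, 132 and 136 CPM in spleen, and its log2 fold change was -0.19 ± 0.10, not called. Its partner Kif3a was at 6.61, 8.15 and 8.97 CPM in liver and 2.58, 5.22 and 5.89 CPM in spleen (0.62 ± 0.32, not called). The Kif3a libraries did not overlap, but the gap was narrow and spleen 1 rested on 3 counts. Kif3c lay between 13.8 and 18.2 CPM in liver and between 16.3 and 17.5 CPM in spleen (-0.14 ± 0.20, not called).

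In the kinesin-3 group, whose members carry endosomes and vesicle precursors, 1 of 5 tested genes was called. Kif13a, a motor of recycling endosomes, was at 61.6, 54.3 and 59.1 CPM in liver and at 37.0, 43.7 and 45.2 CPM in spleen, with a log2 fold change of 0.44 ± 0.13. The call of Kif13a was lost with upper-quartile scaling, with thinned libraries, and without liver 1, liver 2, liver 3, spleen 2 or spleen 3, while the value stayed between 0.36 and 0.49. Kif13b was at 57.5, 48.3 and 43.2 CPM in liver and at 18.1, 37.1 and 39.4 CPM in spleen (0.52 ± 0.19, called without spleen 3 at 0.67 or with no filter on low counts at 0.53). Kif1c was at 118, 96.7 and 103 CPM in liver and at 64.5, 92.4 and 84.0 CPM in spleen (0.35 ± 0.12, called only with no filter on low counts). For Kif13b and Kif1c the liver libraries lay above those of spleen, by a narrow margin and with spleen 1 the lowest. Kif1b, which moves mitochondria and synaptic vesicle precursors in neurons, was at 125, 121 and 102 CPM in liver and at 142, 126 and 123 CPM in spleen (-0.15 ± 0.11, not called). Kif16b, a motor of early endosomes, lay between 23.4 and 26.8 CPM in liver and between 17.2 and 33.7 CPM in spleen (-0.18 ± 0.19, not called).

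The remaining tested members had few counts, apart from Kif2a. Kif2a, a depolymerase related to Kif2c, was at 48.5, 51.8 and 52.9 CPM in liver and at 49.0, 42.7 and 51.7 CPM in spleen, so that the tissues overlapped (log2 fold change 0.10 ± 0.13). Kif24, a kinesin-13 of centrioles, was at 8.89, 9.25 and 6.85 CPM in liver and at 6.88, 4.11 and 3.50 CPM in spleen (0.99 ± 0.33, not called, but called without spleen 1 at 1.13 or with no filter on low counts). Kif19a, a kinesin-8 known for setting the length of cilia, had the largest log2 fold change of any member, 2.07 ± 0.53, from 3.003, 4.03 and 4.81 CPM in liver and 0.860, 0.599 and 1.28 CPM in spleen. The spleen values of Kif19a rested on 1, 7 and 15 counts, and the call was lost without liver 3 (1.90) or without spleen 2 (1.71). Without spleen 3 the value was 2.61. Kif7, a ciliary regulator of Hedgehog signalling, was at 7.81, 9.89 and 6.01 CPM in liver and at 11.2, 12.3 and 11.7 CPM in spleen (-0.59 ± 0.26, not called). It was the only tested member whose liver libraries all lay below those of spleen. Kif9, a kinesin of motile cilia, was at most 0.916 CPM in liver and at most 1.20 CPM in spleen (-0.63 ± 0.69, not called).

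Of the 10 members that did not pass the filter, Kif1a, Kif2b and Kif12 had 0 counts in every library. A count of 0 allows up to 3 counts, which is 0.275 to 0.360 CPM in the liver libraries, 2.58 CPM in spleen 1 and 0.256 to 0.257 CPM in the other 2 spleen libraries. Kif5a, Kif6, Kif17, Kif21a, Kif26a, Kif26b and Kif27 held between 1 and 53 counts over all 6 libraries together, too few to compare. Among them are motors best known from neurons, such as Kif1a, Kif5a and Kif21a, and from cilia, such as Kif17 and Kif27.

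Motors whose symbols lie outside the pattern were read from a list of 5. Cenpe, a kinetochore kinesin, was at 76.5, 88.6 and 77.4 CPM in liver and at 44.7, 28.2 and 34.5 CPM in spleen (log2 fold change 1.27 ± 0.15, called higher in liver). Kifc1, a minus-end motor that focuses spindle poles, was higher by 0.70 ± 0.12 and its near copy Kifc5b by 0.66 ± 0.18, and the levels of these near-identical copies are uncertain, since the counting may split their reads. Kifc3 was lower in liver by -0.75 ± 0.24, a call that DESeq2 did not make, and Kifc2 was not called. The tissues overlapped for Kifc3, with spleen 1 at 10.3 CPM from 12 counts and the liver libraries at 8.14 to 10.9 CPM. The 19 listed partners of the mitotic kinesins had a median log2 fold change of 1.46. Beside 9.28% of all genes tested, 18 of these partners were called higher in liver. They included Racgap1, the centralspindlin partner of Kif23 (1.40 ± 0.10), Tpx2, the spindle factor that recruits Kif15 (1.78 ± 0.13), Nusap1 (1.76 ± 0.16) and Incenp, a subunit of the complex that Kif20a carries (1.14 ± 0.10). The spindle pole protein Numa1 was the exception (0.26 ± 0.09, not called).

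Genes that serve the transport kinesins were read next, beside 9.28% of all genes tested called higher in liver and 6.90% lower. Of 13 tested light chains, cargo adaptors and subunits, 0 were called in either direction by edgeR or by DESeq2. In so short a list this lies near those shares, and nothing is read from it. At an unadjusted p under 0.05, 0 were higher and 2 lower, Klc3 and Mapk8ip3. The share of all genes at that unadjusted threshold was not counted. Klc3 was at -0.46 ± 0.18, Mapk8ip3 at -0.20 ± 0.10, Arl8a at 0.21 ± 0.17 and Plekhm2 at 0.20 ± 0.16 on the log2 scale. The median log2 fold change of the list was 0.01. Kifap3, the subunit that joins Kif3a and Kif3b, was at 4.32 to 6.29 CPM in liver and 5.82 to 6.23 CPM in spleen (-0.11 ± 0.32). Dynein is the motor that runs the opposite way. Of 22 tested genes of dynein, dynactin and their cofactors, 1 was called higher in liver, the cofactor Nde1 (0.55 ± 0.12). One of dynactin, Actr1b, was called lower (-0.39 ± 0.11), and the median was 0.08. Actr1a (0.23 ± 0.09) and Dctn4 (0.34 ± 0.13) were not called. Of 17 tested tubulins and microtubule-binding proteins, 7 were called higher in liver and 1 lower, with a median of 0.31. Stmn1, a tubulin-binding protein of dividing cells, was higher by 1.32 ± 0.15, Tuba1c by 0.91 ± 0.13 and Tuba1a by 0.60 ± 0.09, whereas Tuba4a was lower in liver, with -0.59 ± 0.10. Among 4 references of proliferation, Mki67 and the chromosome-untangling enzyme gene Top2a (1.37 ± 0.13) were called higher in liver. The replication genes Pcna (0.28 ± 0.11) and Mcm2 (-0.05 ± 0.10) were not called.

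Markers of other cell types moved with the same comparison. Of 47 tested markers of erythroid, granulocyte, macrophage, B, NK and CD8 T cells and hepatocytes, 6 were called higher in liver and 29 lower. Over all genes tested, 9.28% were called higher and 6.90% lower. The whole list summed to between 713 and 783 CPM in liver and between 1155 and 1601 CPM in spleen. The 10 NK and CD8 T cell markers were mixed: 5 of 9 tested were called higher in liver and 1 lower, and they summed to 103 to 132 CPM in liver and 46.1 to 55.8 CPM in spleen. The marker called lower was Eomes, a transcription factor of NK and CD8 T cells, at 0.360, 1.56 and 0.555 CPM in liver and at 10.3, 8.82 and 9.73 CPM in spleen (log2 fold change -3.46). Of their defining genes, Ncr1 was at 0.841 to 2.02 CPM in liver and at most 0.086 CPM in spleen, Cd8a was at 3.72 to 5.50 CPM in liver and 2.57 to 4.87 CPM in spleen, and Cd8b1 was at 5.28 to 9.34 CPM in liver and 6.85 to 8.37 CPM in spleen. The erythroid list summed to 91.0 to 118 CPM in liver and 243 to 287 CPM in spleen, the granulocyte list to 271 to 306 CPM and 496 to 837 CPM, and the macrophage list to 73.5 to 83.0 CPM and 133 to 205 CPM. The B cell list summed to 132 to 160 CPM in liver and 203 to 284 CPM in spleen. The globin symbols Hbb-b1, Hba-a1 and Hba-a2 were at 0 in every library. The hepatocyte list summed to 14.3 to 21.1 CPM in liver and 18.1 to 24.9 CPM in spleen, and Alb was at 2.20 to 7.31 CPM in liver and listed at 0 in spleen. The part of these cells in the kinesin values was not tested.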

How the data were processed

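RNA was sequenced from 3 liver and 3 spleen samples of sorted Treg cells after TRIZOL extraction, per the labels' protocols. The authors deposited raw read counts per gene symbol, for which the submitters' processing notes name HISAT2 2.1, HTSeq 0.11 and mm9. No source used here gives the annotation or the strand setting, so reads of overlapping or antisense genes may be mixed. The 5 HTSeq summary rows, which took 25.5% to 29.0% of the counts in the table for a library, entered neither library sizes nor tests.

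Counts were fitted in R 4.3.3 with edgeR 4.0.16 (filterByExpr, TMM, quasi-likelihood F test, liver minus spleen) over 11716 of 23366 genes, with Benjamini-Hochberg adjustment over all of them and a threshold of 0.05. The SE of a log2 fold change is the one implied by the F statistic. The fit was tested on simulated data. Every pair of libraries of a tissue differed beyond sampling noise, with a chi-square of 4.71 or more for each degree of freedom. Alternatives were DESeq2-style size factors, upper-quartile scaling, the DESeq2 1.42.0 Wald test, no filter on low counts, thinning to equal depth, a block on sex-linked transcripts, and leaving out each library. The members, lists, motifs and alternatives were chosen with earlier results of these data known. Every tested member is named, and of each pathway list the 4 genes with the smallest p; other genes were named after their values were seen. Transcript lengths came from GENCODE M21 and promoters from RefSeq, both of a later build. Whether libraries came from separate animals is not labelled, and a p-value refers only to the spread of these samples. Intervals and floors cover counting error only.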

Additional observations from a re-analysis of the deposited data

How the results depend on the processing

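The number of kinesins called higher in liver was 13 with DESeq2-style size factors, with the DESeq2 Wald test and with a block on sex-linked transcripts, 12 with upper-quartile scaling, 16 with no filter on low counts and 9 with all libraries thinned to 1199410 counts. It was 10 to 14 when a library was left out, and 0 were called lower under any of these settings. The 11 mitotic kinesins were called under all of them, except Kif18a and Kif20b in thinned libraries and Kif18a without spleen 2. Their median log2 fold change stayed between 1.41 and 1.61, and that of the other tested members between 0.00 and 0.15. Over all genes, thinning left 631 called higher and 433 lower in liver, from fewer genes tested. Without spleen 2 these counts were 722 and 486, the cause was not tested, and over the libraries left out in turn they ran from 722 to 1245 and from 486 to 989. No scaling moved the median of all genes by over 0.1 on the log2 scale.

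The labels do not pair the libraries. A paired fit was made from the data alone, with a block that joined liver 1 with spleen 1, liver 2 with spleen 2 and liver 3 with spleen 3 by their Xist and Ddx3y levels, and it gave a median of 1.48 for the mitotic kinesins and changed the call of no kinesin. Depth limits the scarce members most in spleen 1, where 3 counts make 2.58 CPM.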
